A study of Mus musculus with 32 samples.

Results

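The genes described here are the Lhx, Nkx, Irx, Dlx, Msx and sine oculis homeobox genes of the mouse, measured in zygotes and 2-cell embryos that were cultured with an inhibitor of histone acetylation or of histone deacetylation. They were chosen by name, with earlier results of these data known. Every protein-coding gene whose GENCODE symbol was one of these family names (the sine oculis family being that of Six2 and Six4) followed by its number was taken, which gave 43 of the 21897 protein-coding genes in the files (8 Lhx, 14 Nkx, 6 Irx, 6 Dlx, 3 Msx and 6 sine oculis genes). The RNA data were 16 total RNA-seq libraries in 8 groups of 2. All embryos were wild type (WT), from in vitro fertilization of oocytes of B6D2F1/J females with sperm of B6D2F1/J males, 6 to 8 weeks old, and were cultured in KSOM medium. A-485, a catalytic inhibitor of the acetyltransferases CBP and p300, was given at 10 µM from 4 to 20 hours post in vitro fertilization (hpi). This window ran from the zygote to the early 2-cell stage, and A-485 was then washed off. Embryos were taken as zygotes, at the early 2-cell stage and, after the wash, at the late 2-cell stage. TSA (trichostatin A), an inhibitor of histone deacetylases (HDACs), was given at 50 nM from 8 to 28 hpi, and late 2-cell embryos were taken. Each treated group had its own group cultured with the solvent DMSO, so that there were 2 late 2-cell DMSO groups, which were assigned to the A-485 and to the TSA experiment by their titles. The questions were what happened to these genes when acetylation was blocked in the zygote, and what happened when its removal between the zygote and the 2-cell stage was blocked.

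Homeobox genes encode transcription factors that bind DNA through a homeodomain. The LIM-homeobox (Lhx) genes, the Nkx genes, the Iroquois (Irx) genes, the distal-less (Dlx) genes, the muscle segment (Msx) genes and the sine oculis genes are best known for patterning the brain, the head skeleton, the heart, the limbs, the sense organs and the kidney well after implantation. Several lie in pairs or small clusters of neighbouring paralogs, and their promoters are often rich in CpG dinucleotides and held silent by Polycomb proteins in cells that do not use them. In the zygote little is transcribed, and the embryonic genome is switched on in a minor wave up to the early 2-cell stage and a major wave at the late 2-cell stage (zygotic genome activation).

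The promoters of these genes are described first. RefSeq promoters on the build GRCm38.p6 were found for 31 of the 43 genes (36 promoters). The 250 bases before the start site held a median of 17 CpG dinucleotides in these 36 promoters and of 10 in the 20139 promoters of all protein-coding genes in that table, and their median GC content was 62.8% against 56.0%. At least 15 CpG were present in 58.3% of the promoters of the homeobox genes and in 38.0% of all promoters. The letters TATAAA, searched on both strands, were present in 2 of the 36 promoters (5.56%) and in 11.2% of all promoters. These are descriptions of the letters in the window and no test was made. The 5 promoters below were chosen after the expression values were seen. Six4 has another RefSeq promoter (chr12:73113426-73113675, 13 CpG), which is not shown. Msx1, Dlx2 and Six4 rose after both treatments, Lhx8 carried the most RNA in the zygote and passed the test after neither, and Nkx2-4 has the most CpG of all these promoters and also passed after neither. Each is written in the direction of its gene and ends at the base before the start site, with every CG in capitals.
Msx1 (chr5:37824586-37824835, minus strand, 20 CpG): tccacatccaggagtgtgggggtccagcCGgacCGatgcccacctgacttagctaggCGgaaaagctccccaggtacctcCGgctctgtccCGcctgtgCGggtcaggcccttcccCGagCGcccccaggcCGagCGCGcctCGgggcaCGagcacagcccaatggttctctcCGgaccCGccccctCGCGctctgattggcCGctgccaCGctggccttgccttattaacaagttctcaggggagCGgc
Dlx2 (chr2:71546755-71547004, minus strand, 24 CpG): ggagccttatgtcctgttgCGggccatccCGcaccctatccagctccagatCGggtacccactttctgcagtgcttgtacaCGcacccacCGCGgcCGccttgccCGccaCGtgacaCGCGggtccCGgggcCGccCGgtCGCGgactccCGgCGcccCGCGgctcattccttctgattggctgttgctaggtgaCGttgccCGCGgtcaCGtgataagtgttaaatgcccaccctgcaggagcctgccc
Six4 (chr12:73113246-73113495, minus strand, 15 CpG): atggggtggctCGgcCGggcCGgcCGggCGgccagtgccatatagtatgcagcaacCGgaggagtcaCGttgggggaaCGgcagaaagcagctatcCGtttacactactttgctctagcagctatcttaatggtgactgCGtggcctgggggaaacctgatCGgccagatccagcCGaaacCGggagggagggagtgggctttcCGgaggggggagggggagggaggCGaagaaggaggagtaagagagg
Lhx8 (chr3:154330561-154330810, minus strand, 4 CpG): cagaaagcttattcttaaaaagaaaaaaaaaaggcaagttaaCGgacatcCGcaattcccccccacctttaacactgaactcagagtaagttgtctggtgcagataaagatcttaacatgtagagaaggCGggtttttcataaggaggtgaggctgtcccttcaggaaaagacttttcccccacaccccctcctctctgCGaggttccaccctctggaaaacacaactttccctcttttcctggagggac
Nkx2-4 (chr2:147085346-147085595, minus strand, 33 CpG): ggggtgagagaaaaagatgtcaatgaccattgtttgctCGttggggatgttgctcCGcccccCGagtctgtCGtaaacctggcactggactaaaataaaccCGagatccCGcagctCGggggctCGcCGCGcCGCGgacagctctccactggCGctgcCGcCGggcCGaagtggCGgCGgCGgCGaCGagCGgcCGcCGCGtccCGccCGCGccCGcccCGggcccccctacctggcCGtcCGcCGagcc
Among the homeobox genes themselves, the 22 genes with a promoter in the table that were higher after TSA had a median of 18 CpG (range 4 to 30), and the 9 genes that were not called or not tested had a median of 18 (range 4 to 33). With A-485 at the late 2-cell stage the median was 16.5 CpG in the 10 genes called higher and 19 in the 21 others.

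The libraries held between 13206163 and 32585987 summed expected counts, with the lowest totals in the 2 late 2-cell libraries treated with A-485. Levels are given as FPKM (fragments scaled for transcript length and library size), which allows genes of different length to be compared, always as replicate 1 and then replicate 2. Fold changes, their standard errors (SE) and p-values adjusted for all genes tested by the Benjamini-Hochberg method are from edgeR's quasi-likelihood test of the counts. A gene was called when its adjusted p was under 0.05, its change at least 2-fold and its mean FPKM at least 1 in either group. Nothing in the labels says that the 2 libraries of a group came from separate cultures, so that a p-value measures only the spread between these libraries. Fewer cells that express a gene and less RNA in each cell cannot be told apart in such bulk libraries. Markers of the 2-cell embryo (8 genes, the Zscan4 genes among them) summed to 673 to 762 FPKM in the early 2-cell DMSO libraries and to 30.3 to 40.8 FPKM in the zygote DMSO libraries, and all 8 markers of the oocyte and zygote were at 1 FPKM or more in all groups. Markers of cumulus cells (10 genes) summed to at most 6.64 FPKM and those of sperm (8 genes) to at most 19.4 FPKM in any library.

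In untreated embryos few of these genes carried much RNA. At a mean of 1 FPKM or more were 3 of the 43 genes in zygotes, 12 in early 2-cell embryos, and 7 and 9 in the late 2-cell DMSO groups of the A-485 and TSA experiments. The median gene was at 0.04 FPKM in zygotes, 0.25 in early 2-cell and 0.115 and 0.105 in late 2-cell embryos. In the zygote nearly all of the RNA came from a single gene. Lhx8, a LIM-homeobox gene required in oocytes and in cholinergic neurons of the forebrain, was at 83.9 and 72.7 of the 97.6 and 84.8 FPKM that the 43 genes summed to. It was at 35.4 and 40.7 FPKM in early 2-cell embryos, and at 17.5 and 20.4 FPKM in late 2-cell embryos of the A-485 experiment. Its libraries thus lay lower at each later stage, with no overlap between successive stages. Lhx2, which acts in the forebrain and the eye, was at 5.63 and 5.72 FPKM in zygotes and at 1.43 and 1.82 FPKM in early 2-cell embryos, and Nkx6-2 was the other gene with a mean of 1 FPKM or more in zygotes.

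**Figure D1:**
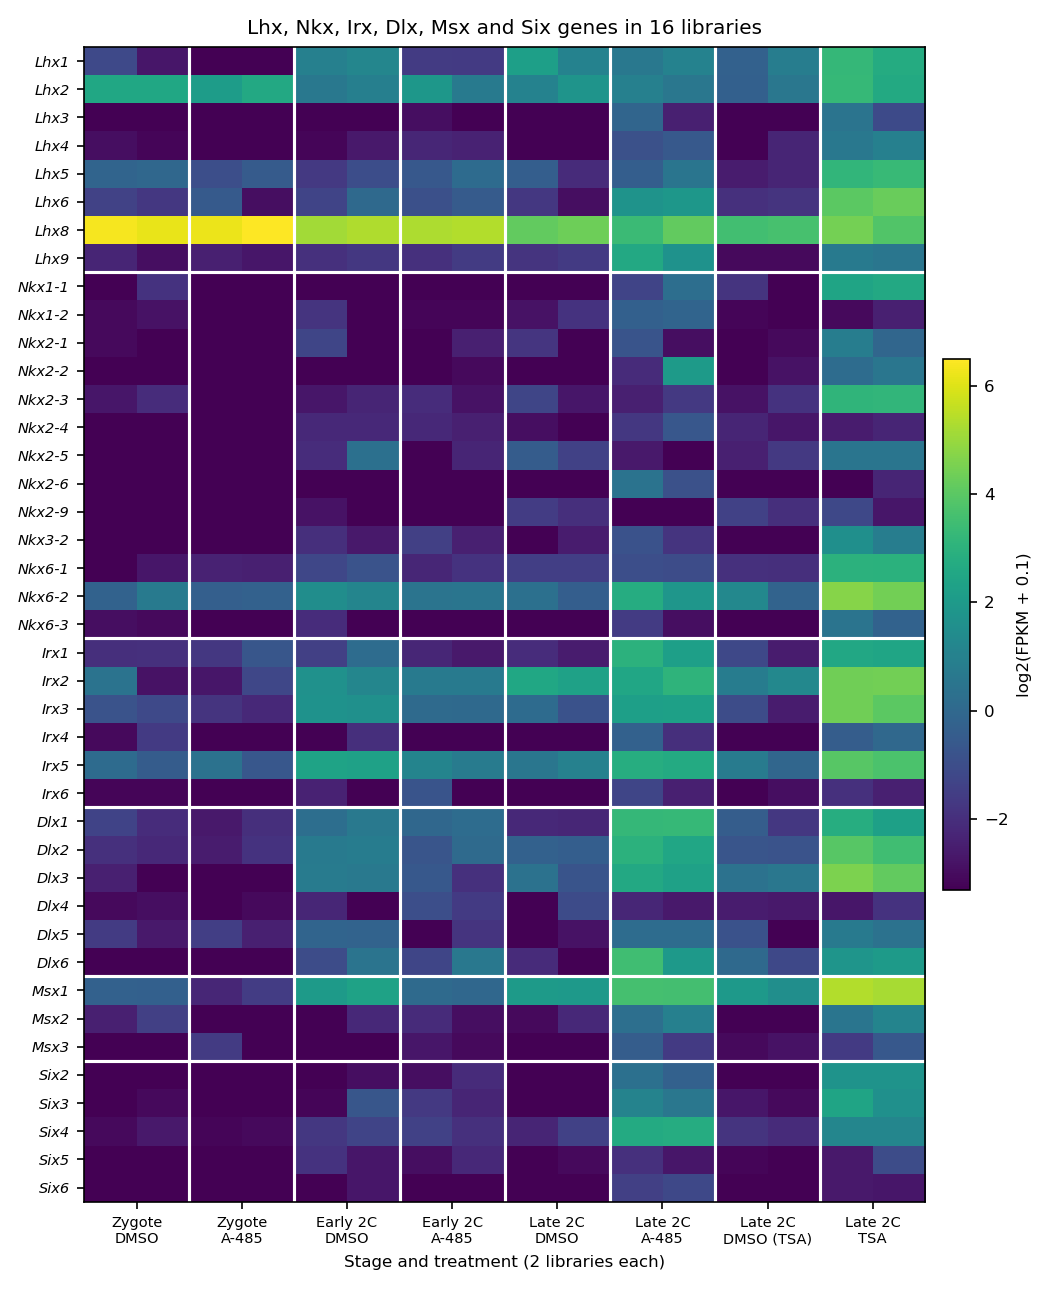
Level of 41 of the 43 homeobox genes (lines, grouped by family) in the 16 RNA libraries (columns, 2 for each of 8 groups) as log2(FPKM + 0.1), with yellow high and dark blue low. 2C is the 2-cell stage, and the late 2-cell DMSO group marked TSA is the control of the TSA experiment. Most genes are dark in zygotes and in the late 2-cell DMSO libraries, and many are brightest in the 2 TSA libraries, where 32 of the 43 have a mean of 1 FPKM or more.

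From the zygote to the early 2-cell stage with DMSO, 29 of the 43 genes could be tested (at least 10 counts summed over the 4 libraries), and 9 rose and 1 fell. Of all genes tested, 11.2% were called higher and 14.9% lower. The labels name no processing batch, so whether the stages were prepared together is not given in the sources used here, and a difference of stage cannot be told apart from one of preparation. Lhx1, a gene of the head organizer, rose from 0.35 and 0.05 FPKM to 1.86 and 2.19 FPKM (log2 fold change 5.70 ± 0.60 SE). Its zygote libraries held 2 and 5 counts, and its mean FPKM, 0.2 and then 2.025, changed by less than its counts. Msx1, a gene of tooth and palate formation, rose from 0.73 and 0.71 FPKM to 3.99 and 4.92 FPKM (2.72 ± 0.34). The Irx genes, which pattern the heart and the neural tube, included 3 that rose. Irx5 went from 0.99 and 0.63 to 5.07 and 4.86 FPKM (2.72 ± 0.31), Irx3 from 0.47 and 0.35 to 3.14 and 3.00 FPKM (2.99 ± 0.35), and Irx2 from 1.25 and 0.04 to 3.01 and 2.20 FPKM (3.87 ± 0.62). The zygote libraries of Irx2 were far apart, yet both lay below both early 2-cell libraries, and the ratio of its mean FPKM was 2.01 on the log2 scale against 3.87 for its counts (a comparison added after the data had been seen). Dlx2, a gene of forebrain interneurons and the jaw, rose from 0.16 and 0.12 to 1.53 and 1.64 FPKM (3.57 ± 0.54). Dlx3, which acts in the placenta and in tooth and hair, rose from 0.08 and 0.00 to 1.60 and 1.46 FPKM (5.22 ± 0.82). Nkx6-2, a gene of the neural tube and of oligodendrocytes, rose from 0.75 and 1.51 to 2.73 and 2.11 FPKM (1.46 ± 0.49, adjusted p = 0.0257), and this call was lost without the zygote DMSO replicate 1 (1.00) or without the early 2-cell DMSO replicate 1 (1.36). With mitochondrial scaling the median of all genes shifted by −1.32, 1270 genes were higher and 8196 lower (2257 and 3002 otherwise), and of the homeobox genes 8 were higher and 2 lower, Nkx6-2 being at 0.11. Lhx2 fell by 1.75 ± 0.25 on the log2 scale. Lhx8 changed by −0.93 ± 0.10 on that scale, under the 2-fold threshold (adjusted p = 6.925e-06). Without the FPKM threshold, 14 genes were called higher against 15.1% of all genes, the other 5 being Nkx2-5, Nkx6-1, Dlx6, Six3 and Six4, all of them at a mean under 1 FPKM.

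From the early to the late 2-cell stage with DMSO, 30 genes were tested, 5 fell and 0 rose, where 8.92% of all genes were called lower and 15.9% higher. Without the FPKM threshold 7 were lower, against 9.51%. No gene passed upward at an unadjusted p under 0.05 either, nor with DESeq2. Stage and preparation cannot be told apart here either, and the early 2-cell DMSO libraries are the same as in the preceding comparison. With the late 2-cell DMSO group of the TSA experiment in place of that of the A-485 experiment, 7 genes were lower and 0 higher. Irx3 fell by 2.11 ± 0.45 on the log2 scale, to 0.97 and 0.45 FPKM, and Irx5 fell by 1.63 ± 0.32, to 1.34 and 1.90 FPKM. Lhx8 fell by 1.32 ± 0.18. These 3 calls held with the other DMSO group (−3.67, −1.95 and −1.63). Dlx1, which acts beside Dlx2 in interneurons, went from 1.08 and 1.47 to 0.12 and 0.11 FPKM (−2.22 ± 0.77, adjusted p = 0.0411). The call of Dlx1 was lost without the early 2-cell DMSO replicate 2 (−1.66) or without either late 2-cell DMSO library (−2.21 and −2.22), with the late 2-cell DMSO group of the TSA experiment (−1.12), with DESeq2 (−2.25) and with the replicate block (−2.14). Msx1 did not pass, at 4.03 and 3.77 FPKM (−0.20 ± 0.30, adjusted p = 0.67), and its groups overlapped.

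In zygotes, no difference with A-485 was detected. Of the 22 genes tested, 0 were higher and 0 lower in edgeR, against 0.00548% and 0.0657% of all genes (0.0822% lower without the FPKM threshold, again with 0 of these genes). At an unadjusted p under 0.05 there were 0 higher and 3 lower genes, and DESeq2 called 0 of either. The median log2 fold change was −0.71, against −0.01 over all genes tested. At 0 in both libraries were 23 of the 43 genes with A-485 and 12 with DMSO, and genes at so few counts could not be resolved. Msx1 was at 0.11 and 0.24 FPKM with A-485 against 0.73 and 0.71 FPKM, without overlap, and did not pass. Lhx8 was at 75.4 and 91.2 FPKM with A-485 and Lhx2 at 4.19 and 6.02 FPKM, and for both genes the treated and the DMSO libraries overlapped (log2 fold changes 0.04 ± 0.08 and −0.12 ± 0.19).

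In early 2-cell embryos treated with A-485, 7 of the 33 genes tested were lower than with DMSO and 0 were higher, against 7.9% and 0.402% of all genes. Without the FPKM threshold the same count of 7 stood against 8.43%. At an unadjusted p under 0.05 there were 10 lower and 0 higher genes, and DESeq2 called 7 and 0. The early 2-cell DMSO libraries are also the later stage of the comparison with zygotes, so that both use the same control values. The markers of the 2-cell embryo summed to 29.1 and 27.4 FPKM in the A-485 libraries against 762 and 673 FPKM with DMSO, and the part of that difference in these results was not tested. Lhx1 was at 0.23 and 0.22 FPKM against 1.86 and 2.19 FPKM (log2 fold change of counts −4.89 ± 0.56 SE, adjusted p = 6.84e-05). Its A-485 libraries held 5 and 4 counts, and its mean FPKM, 0.225 against 2.025, differed by less than its counts. Msx1 was at 0.96 and 0.87 FPKM against 3.99 and 4.92 FPKM (−2.27 ± 0.34, adjusted p = 0.00055). For both genes the treated libraries lay well below both DMSO libraries. Irx3 was at 0.96 and 0.93 FPKM against 3.14 and 3.00 FPKM (−1.69 ± 0.31, adjusted p = 0.00269). Irx5 was at 2.05 and 1.59 FPKM against 5.07 and 4.86 FPKM (−1.42 ± 0.27, adjusted p = 0.00346). Irx2 was at 1.56 and 1.54 FPKM against 3.01 and 2.20 FPKM (−1.62 ± 0.42, adjusted p = 0.0248). The ratio of its mean FPKM was −0.75 on the log2 scale, less than 2-fold. The Irx family thus held 3 of the 7 genes that fell, with no overlap between treated and DMSO libraries. Dlx3 was at 0.56 and 0.16 FPKM against 1.60 and 1.46 FPKM (−2.08 ± 0.60, adjusted p = 0.0413). The calls of Irx2 and Dlx3 are the weak ones. Without the A-485 replicate 2 they were −1.21 and −1.41 and not called, and likewise without the DMSO replicate 1 (−1.3 and −1.99). Dlx3 was also not called without the DMSO replicate 2 (−2.16).

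Other genes did not pass at the early 2-cell stage. Lhx8 was at 39.6 and 41.1 FPKM with A-485 against 35.4 and 40.7 FPKM (0.13 ± 0.12), and Lhx2 at 3.62 and 1.52 FPKM against 1.43 and 1.82 FPKM (0.23 ± 0.35), with overlapping libraries in both genes. Dlx2 was at 0.51 and 0.95 FPKM against 1.53 and 1.64 FPKM (−1.10 ± 0.46, adjusted p = 0.172), and Nkx6-2 at 1.29 and 1.33 against 2.73 and 2.11 FPKM (−0.87 ± 0.43, adjusted p = 0.257). Both genes were lower in both treated libraries, but the difference did not pass the threshold. Dlx1, the neighbour of Dlx2, was at 0.87 and 1.00 FPKM against 1.08 and 1.47 FPKM, with a log2 fold change of counts of 0.48 ± 0.50. For that gene the FPKM and the counts point to opposite sides. Lhx5, Lhx6, Lhx9, Irx1, Dlx5, Dlx6, Six3 and Six4 did not pass either, and all were under a mean of 1 FPKM in both groups.

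At the late 2-cell stage, after A-485 had been removed, the picture was different. Of the 40 genes tested, 16 were higher in treated embryos than with DMSO and 0 were lower, against 10.5% and 16.8% of all genes. The median log2 fold change was 3.30 (2.40 with the genes at 0 in DMSO set to their lowest possible change), against 0.28 over all genes tested. A gene near 0 in DMSO could enter the test only through its treated libraries, so these figures describe the list and are not a test of it. At a mean of 1 FPKM or more were 22 of the 43 genes with A-485 and 7 with DMSO. The genes summed to 137 and 127 FPKM with A-485 against 47.5 and 47.4 FPKM. Without the FPKM threshold 22 were higher, against 13.8% of all genes. At an unadjusted p under 0.05 there were 26 higher and 0 lower genes, and DESeq2 called 17 and 0. How many genes are called depends on the scaling. With counts scaled to the 13 mitochondrial protein-coding genes, whose share of the counts was 5.43% and 5.35% with A-485 against 2.45% and 2.35% with DMSO, the median of all genes shifted by −0.97 on the log2 scale, 1177 genes were called higher and 6874 lower (2406 and 3824 otherwise), 10 homeobox genes were higher and 2, Lhx2 (−1.32) and Lhx8 (−1.15), were lower. Nkx6-2, Irx5, Dlx5, Msx1 and Msx2 were among those not called on that scale, with log2 fold changes of 1.41, 0.85, 4.21, 0.42 and 2.71.

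The Dlx genes had the largest share, 5 of the 6. Dlx1 was at 9.16 and 9.61 FPKM against 0.12 and 0.11 FPKM (log2 fold change 5.33 ± 0.43 SE, adjusted p = 1.16e-06). Dlx2 was at 7.89 and 5.61 FPKM against 0.73 and 0.66 FPKM (2.83 ± 0.42, adjusted p = 0.000216). Dlx3 was at 6.09 and 4.87 FPKM against 1.19 and 0.48 FPKM (2.49 ± 0.49, adjusted p = 0.00158). In each of these 3 genes the treated and the DMSO libraries lay far apart. Dlx6, which with Dlx5 patterns the lower jaw, was at 11.1 and 3.83 FPKM against 0.13 and 0.00 FPKM, a ratio of 114 with a 95% counting interval of 31.0 to 946, since DMSO had 2 counts (adjusted p = 0.00013). Dlx5 was at 1.01 and 1.01 FPKM against 0.00 and 0.04 FPKM (ratio 44.7, counting interval 7.49 to 1816, adjusted p = 0.0342). The call of Dlx5 was lost without either A-485 library (5.13 and 5.12), without DMSO replicate 1 (4.23) and with the late 2-cell DMSO libraries of both experiments as controls (2.7), with mitochondrial scaling (4.21) and with the replicate block (5.22). Dlx4 was at 0.11 and 0.06 FPKM and at 0.00 and 0.37 FPKM, with overlapping groups.

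Of the sine oculis genes, 2 of the 5 tested were called. Six4, a gene of muscle development, was at 6.39 and 6.67 FPKM against 0.10 and 0.27 FPKM (5.00 ± 0.38 on the log2 scale, adjusted p = 6.78e-07). Six3, a gene of the forebrain and eye, was at 2.02 and 1.41 FPKM against 0 in both DMSO libraries, at least 26.5-fold higher when 3 counts per library are taken as the floor. Six2, which maintains the progenitors of the nephron, was at 1.13 and 0.74 FPKM against 0 in both, at least 10.1-fold higher, with a mean under 1 FPKM and so not called.

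The other families held fewer calls. Msx1 was at 12.2 and 11.7 FPKM against 4.03 and 3.77 FPKM (1.39 ± 0.28, adjusted p = 0.00219), and Msx2, which acts in the skull, at 1.12 and 1.85 against 0.02 and 0.12 FPKM (3.69 ± 1.10, adjusted p = 0.0201). Msx2 was not called without the A-485 replicate 2 (3.27) or the DMSO replicate 1 (2.96). Among the Irx genes, Irx1 was at 7.91 and 4.61 FPKM against 0.14 and 0.07 FPKM (5.32 ± 0.79, adjusted p = 0.000199). Irx3 was at 4.64 and 4.70 FPKM against 0.97 and 0.45 FPKM (2.51 ± 0.48), and Irx5 at 6.93 and 6.27 FPKM against 1.34 and 1.90 FPKM (1.83 ± 0.36). All treated libraries of these 3 genes were above the DMSO libraries. Irx2 was at 5.49 and 8.34 FPKM against 5.67 and 4.80 FPKM, and its groups overlapped (0.50 ± 0.40). Of 8 Lhx genes, Lhx6, a gene of cortical interneurons, was at 3.21 and 3.54 FPKM against 0.20 and 0.03 FPKM (4.32 ± 0.71, adjusted p = 0.000439), and Lhx9, which is needed for the gonad, at 5.98 and 3.09 FPKM against 0.18 and 0.22 FPKM (4.63 ± 0.49, adjusted p = 1.29e-05). Lhx1, Lhx2 and Lhx8 did not pass. Lhx1 was at 1.42 and 1.94 FPKM against 4.53 and 1.94 FPKM (−0.16 ± 0.42), and Lhx8 at 10.2 and 17.5 FPKM against 17.5 and 20.4 FPKM (−0.17 ± 0.29). Of 12 Nkx genes tested, 2 were called. Nkx6-2 was at 6.66 and 3.48 FPKM against 1.15 and 0.66 FPKM (2.36 ± 0.58, adjusted p = 0.00686). Nkx2-2, a gene of the ventral neural tube, was at 0.13 and 4.05 FPKM against 0 in both DMSO libraries and did not pass (adjusted p = 0.058), the 2 treated libraries being far apart. Nkx6-2 overlaps Inpp5a on the opposite strand, which was at 16.7 to 26.95 FPKM in all 16 libraries. Dlx1, Dlx6, Irx3 and Six3 also overlap genes on the opposite strand, and these were higher with A-485 at this stage. Dlx1as was at 1.96 and 2.48 FPKM against 0.00 and 0.24 FPKM, and Irx3os at 2.04 and 2.29 FPKM against 0 in both. Six3os1 was at 1.53 and 1.60 FPKM against 0.05 and 0.13 FPKM, and Dlx6os1 at 0.73 and 1.96 FPKM against 0.33 and 0.27 FPKM. With TSA, Irx3os was at 0.71 and 0.65 FPKM against 0.01 and 0.03 FPKM, and Six3os1 at 1.29 and 1.09 FPKM against 0 in both. Gm27199, which overlaps Lhx5 on the opposite strand, was at 1.15 and 2.25 FPKM with TSA against 0.00 and 0.26 FPKM. The TSA and DMSO libraries overlapped for Dlx1as and Dlx6os1. Whether the counting used strand is not given in the sources used here.

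Markers of other cell types moved with A-485 at this stage. The 6 fibroblast markers summed to 14.2 and 16.4 FPKM against 0.13 and 0.64 FPKM, and 13.9 and 15.9 FPKM of that was the receptor gene Pdgfra. Dcn, Lum and Col1a2 were at 0 in both treated libraries, Col1a1 was at 0.28 and 0.21 FPKM against 0.05 and 0.03 FPKM, and Col3a1 at 0.00 and 0.26 FPKM against 0 in both. The 10 cumulus markers summed to 4.05 and 4.41 FPKM against 0.90 and 1.81 FPKM. Has2 was at 1.13 and 1.03 FPKM against 0.17 and 0.19 FPKM, and Foxl2 at 1.47 and 1.63 FPKM against 0.00 and 0.09 FPKM. Ptx3 was at 0.23 and 0.32 FPKM and Inha at 0.12 and 0.42 FPKM, both against 0 in both DMSO libraries. Tnfaip6 (0.25 and 0.27 against 0.03 and 0.79 FPKM) and Cyp19a1 (0.74 and 0.74 against 0.70 and 0.74 FPKM) overlapped, and Amh and Fshr were at 0 with A-485 and with DMSO. The 8 sperm markers summed to 2.55 to 3.92 FPKM against 1.25 to 2.37 FPKM, and the 6 erythroid markers to 0.43 to 0.55 FPKM against 3.53 to 4.56 FPKM. Markers of the oocyte and zygote summed to 1440 FPKM in both treated libraries against 761 and 818 FPKM, and markers of the 2-cell embryo to 103 and 92.5 FPKM against 417 and 409 FPKM. The part of these differences in the homeobox results was not tested.

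**Figure D2:**
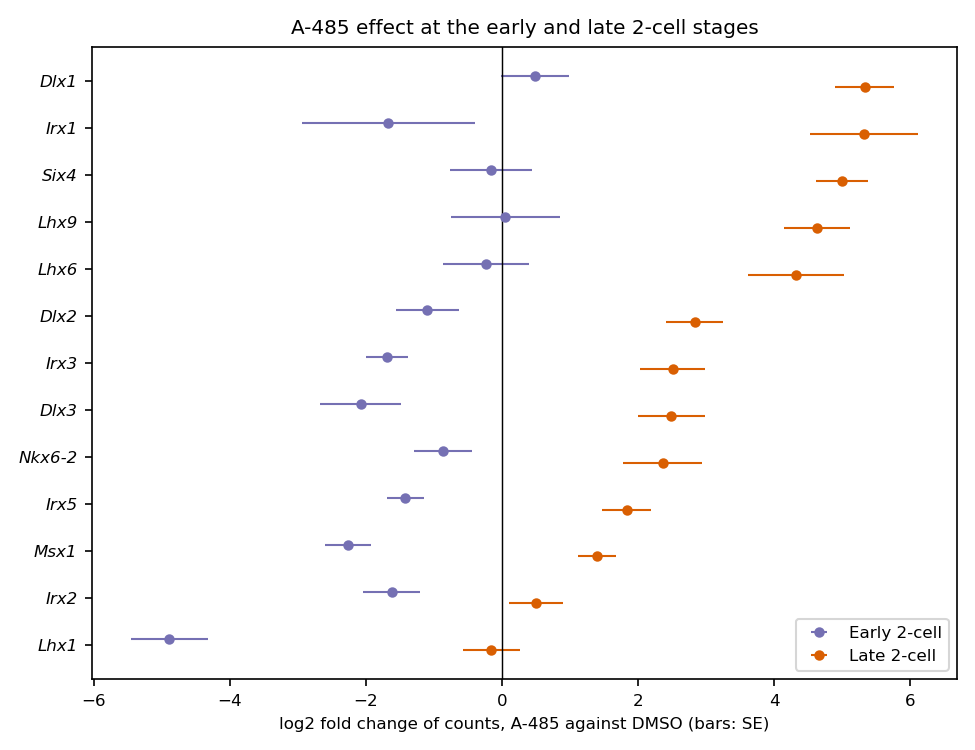
Log2 fold change of counts with A-485 against DMSO (horizontal axis, bars are SE) for 13 homeobox genes at the early 2-cell stage (purple) and the late 2-cell stage (orange), 2 libraries a group. The genes are among those whose change differed between the stages in the test of that difference and that had more than 3 counts in each group, ordered by their change at the late 2-cell stage. All 13 late values lie to the right of the early ones, which restates the test by which the genes were chosen. Irx3, Irx5, Dlx3 and Msx1 were called lower at the early and higher at the late stage.

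The difference between the stages was tested as the A-485 effect at the late 2-cell stage minus the A-485 effect at the early 2-cell stage, a test that was added after the data had been seen. Of the 43 genes, 19 had a higher effect at the late stage and 0 a lower one, against 8.39% and 7.46% of all genes. Here too stage and preparation cannot be told apart. With mitochondrial scaling the median of all genes shifted by −1.04, the split of all genes went from 2109 higher and 1876 lower to 1094 and 5466, and of the homeobox genes 18 were higher and 1 lower. For Msx1 the effects of −2.27 and 1.39 differed by 3.74 ± 0.47 on the log2 scale (adjusted p = 1.155e-06). Irx3 had effects of −1.69 and 2.51 (difference 4.28 ± 0.61, adjusted p = 9.015e-06), Irx5 of −1.42 and 1.83 (3.34 ± 0.48, adjusted p = 8.905e-06), and Dlx3 of −2.08 and 2.49 (4.65 ± 0.78, adjusted p = 6.92e-05). These 4 genes were called on opposite sides at the 2 stages. Lhx1 differs from them, being lower at the early stage and not passing the test at the late stage (difference 4.81 ± 0.76). Dlx1, Six4, Lhx6 and Lhx9 were called at the late stage and not at the early one, with differences of 4.93 ± 0.67, 5.25 ± 0.56, 4.65 ± 0.97 and 4.66 ± 0.76.

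**Figure D3:**
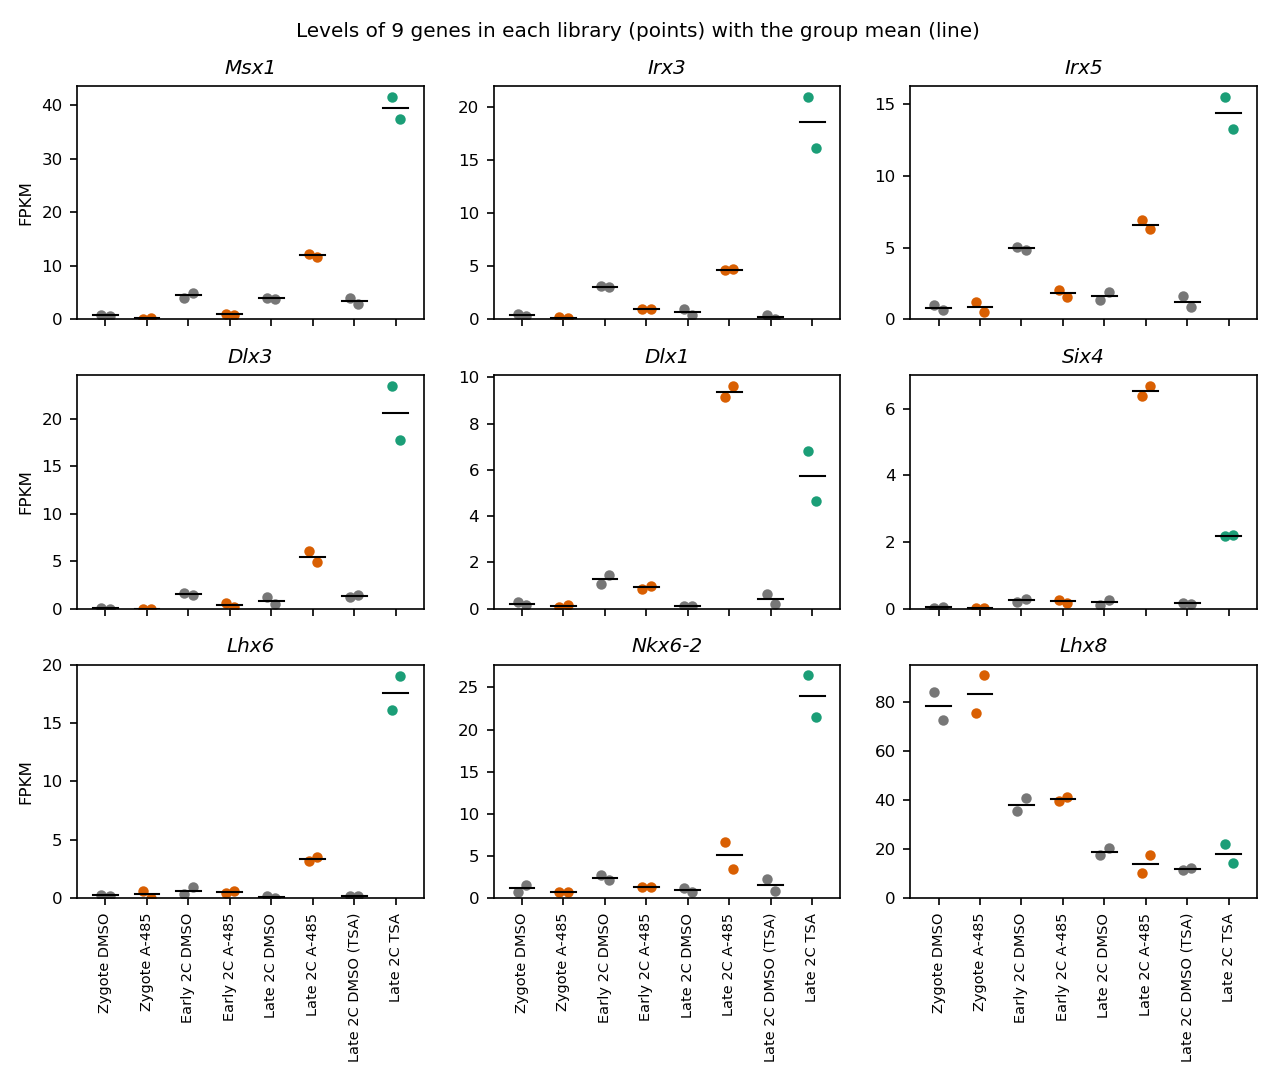
FPKM of 9 homeobox genes in the 8 groups (points are the 2 libraries of a group, lines their mean, grey DMSO, orange A-485, green TSA; each panel has its own vertical axis from 0). Msx1, Irx3, Irx5 and Dlx3 are low with A-485 at the early 2-cell stage and high with A-485 and TSA at the late 2-cell stage, Dlx1 and Six4 are highest with A-485 at the late 2-cell stage, and Lhx8 is highest in zygotes.

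In late 2-cell embryos treated with TSA, 30 of the 40 genes tested were higher than with DMSO and 0 were lower, against 13.8% and 13.9% of all genes. Without the FPKM threshold 33 were higher, against 18.4%. The median log2 fold change was 4.21 (3.74 with genes at 0 in DMSO set to their lowest possible change), against 0.13 over all genes tested, and here too the genes near 0 in DMSO entered through the treated libraries. At a mean of 1 FPKM or more were 32 of the 43 genes with TSA and 9 with DMSO. The genes summed to 327 and 287 FPKM with TSA against 31.9 and 29.7 FPKM with DMSO. At an unadjusted p under 0.05 there were 34 higher and 0 lower, and DESeq2 called 30 and 0. With counts scaled to the mitochondrial genes (3.66% and 3.72% of counts with TSA, 2.71% and 2.39% with DMSO) the number was 30 again. The split of all genes, 3237 higher and 3247 lower, became 4108 and 2384 when total counts were used for scaling. By family these were 6 of 8 Lhx genes, 10 of 12 Nkx, 4 of 6 Irx, 4 of 6 Dlx, 2 of 3 Msx and 4 of 5 sine oculis genes tested.

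The highest level with TSA was that of Msx1. It was at 41.6 and 37.5 FPKM against 3.92 and 2.82 FPKM (log2 fold change 3.19 ± 0.17 SE, adjusted p = 1.47e-07). The spread between the 2 TSA libraries was small beside the distance to DMSO. Msx2 was at 1.32 and 2.06 FPKM against 0 in both DMSO libraries, at least 25.4-fold higher. Six2 was at 3.20 and 3.20 FPKM against 0 in both, at least 39.8-fold higher. Six3 was at 5.27 and 2.98 FPKM against 0.05 and 0.02 FPKM (6.66 ± 0.53, adjusted p = 2.38e-06). Six4 was at 2.19 and 2.20 FPKM against 0.18 and 0.13 FPKM (3.44 ± 0.30, adjusted p = 5.0e-06). Six5 was not called, at 0.06 and 0.39 FPKM against 0.01 and 0.00 FPKM.

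All Lhx genes but Lhx3 and Lhx8 were called. Lhx6 was at 16.1 and 19.1 FPKM against 0.16 and 0.18 FPKM, the lowest adjusted p of the 43 genes (6.93 ± 0.25, adjusted p = 9.78e-09). Lhx5, a gene of the hippocampus and hypothalamus, was at 8.70 and 9.68 FPKM against 0.07 and 0.10 FPKM (6.37 ± 0.32, adjusted p = 8.5e-08). Lhx1 was at 9.39 and 6.48 FPKM against 0.74 and 1.70 FPKM (3.00 ± 0.26, adjusted p = 4.51e-06). These were large changes of genes of the brain and head organizer, with no overlap of groups. Lhx2 was at 9.60 and 6.16 FPKM against 0.70 and 1.40 FPKM (2.24 ± 0.27, adjusted p = 6.42e-05). Lhx4, a gene of the pituitary, was at 1.43 and 1.84 FPKM against 0.00 and 0.10 FPKM, a ratio of 68.6 with a counting interval of 18.6 to 572. Lhx9 was at 1.50 and 1.35 FPKM against 0.02 and 0.02 FPKM, a ratio of 109 with a counting interval of 29.9 to 910. Lhx8, the maternal member of the family, was at 22.0 and 14.1 FPKM against 11.4 and 12.4 FPKM, and did not pass (0.10 ± 0.19, adjusted p = 0.701). Lhx3 was at 1.26 and 0.36 FPKM against 0 in both, at least 5.94-fold higher, under the FPKM threshold.

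Of the 12 Nkx genes tested, 10 were higher with TSA. Nkx6-2 was at 26.4 and 21.4 FPKM against 2.29 and 0.77 FPKM (3.64 ± 0.39, adjusted p = 2.3e-05). Nkx6-1, needed for pancreatic beta cells and motor neurons, was at 7.84 and 7.58 FPKM against 0.16 and 0.15 FPKM (5.25 ± 0.28, adjusted p = 1.34e-07). Nkx2-3, a gene of the spleen and gut, was at 8.62 and 8.82 FPKM against 0.04 and 0.17 FPKM (6.05 ± 0.44, adjusted p = 1.2e-06). All 3 were well above DMSO in both libraries, and Nkx6-1 and Nkx2-3 were nearly equal in the 2 treated libraries. Nkx1-1 was at 5.19 and 6.03 FPKM against 0.18 and 0.00 FPKM (5.51 ± 0.71, adjusted p = 9.9e-05). Nkx3-2, a gene of the axial skeleton, was at 2.91 and 1.70 FPKM against 0 in both, at least 24.0-fold higher. The remaining calls were of genes at a low level. Nkx2-5, the heart gene, was at 1.33 and 1.3 FPKM against 0.08 and 0.21 FPKM (2.81 ± 0.74, adjusted p = 0.0103), a call lost with the DMSO libraries of both experiments as controls (1.90) and with all 16 libraries in one fit (2.87). Nkx2-1, known from thyroid and lung, was at 1.68 and 0.86 FPKM against 0.00 and 0.02 FPKM, Nkx2-2 at 1.02 and 1.36 FPKM against 0.00 and 0.04 FPKM, and Nkx6-3, a gene of the stomach, at 1.28 and 0.76 FPKM against 0 in both. Each of these 3 calls was lost without the TSA replicate 1 (5.85, 4.33 and 7.99), and that of Nkx2-2 also without the TSA replicate 2 (3.84) or the DMSO replicate 1 (3.14). Nkx2-4, whose promoter has the most CpG, was at 0.07 and 0.10 FPKM against 0.10 and 0.05 FPKM, with overlapping groups, and Nkx2-9 at 0.34 and 0.05 FPKM against 0.27 and 0.15 FPKM.

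Among the Irx genes, Irx2 was at 20.8 and 21.2 FPKM against 1.64 and 2.28 FPKM (3.67 ± 0.18, adjusted p = 7.26e-08). Irx3 was at 20.9 and 16.2 FPKM against 0.39 and 0.07 FPKM (5.95 ± 0.43, adjusted p = 1.09e-06). Irx5 was at 15.5 and 13.2 FPKM against 1.61 and 0.86 FPKM (3.18 ± 0.27, adjusted p = 4.57e-06). For Irx2, Irx3 and Irx5 both TSA libraries lay far above both DMSO libraries. Irx1 was at 5.82 and 5.39 FPKM against 0.34 and 0.07 FPKM (4.32 ± 0.49, adjusted p = 3.53e-05). Irx4, a gene of the heart ventricle, was at 0.65 and 0.89 FPKM against 0 in both, at least 11.5-fold higher and under the FPKM threshold, and Irx6 did not pass. Dlx3 was at 23.4 and 17.7 FPKM against 1.19 and 1.40 FPKM (3.63 ± 0.20, adjusted p = 1.38e-07). Dlx2 was at 15.4 and 11.3 FPKM against 0.50 and 0.47 FPKM (4.40 ± 0.25, adjusted p = 2.12e-07), and Dlx1 at 6.83 and 4.66 FPKM against 0.64 and 0.20 FPKM (3.53 ± 0.36, adjusted p = 1.67e-05). These Dlx genes did not overlap with DMSO in any library. Dlx6 was at 3.42 and 3.98 FPKM against 0.94 and 0.34 FPKM (3.81 ± 0.55, adjusted p = 0.000229). Dlx5 was at 1.54 and 1.20 FPKM against 0.45 and 0.00 FPKM and did not pass (2.21 ± 1.03, adjusted p = 0.11), though it was called without the DMSO replicate 1 (8.06), with no filter on low counts (2.21) and with the replicate block (2.76). Of the 11 genes that stayed under a mean of 1 FPKM in all 8 groups (Lhx3, Nkx1-2, Nkx2-4, Nkx2-6, Nkx2-9, Irx4, Irx6, Dlx4, Msx3, Six5 and Six6), the highest value in any library was 1.26 FPKM, of Lhx3 with TSA. Nkx1-2, Nkx2-6 and Six6 had too few counts to be tested here.

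Markers of other cell types moved with TSA too. The 6 erythroid markers summed to 44.6 and 46.8 FPKM against 0.78 and 1.36 FPKM, most of it from Hba-a1 and Hba-a2, with Alas2 at 1.34 and 1.11 FPKM against 0.21 and 0.07 FPKM, while Hbb-bs and Hbb-bt were at 0 in all 4 libraries. The 6 fibroblast markers summed to 8.07 and 5.51 FPKM against 0.38 and 1.73 FPKM. Pdgfra made up 5.43 and 3.63 FPKM of the sum with TSA. Col1a1 was at 2.63 and 1.74 FPKM against 0.08 and 1.49 FPKM, and Dcn and Lum were at 0 in all 4 libraries. The 10 cumulus markers summed to 3.16 and 2.72 FPKM against 1.28 and 1.44 FPKM, the 8 sperm markers to 4.88 to 6.30 FPKM against 2.08 to 3.21 FPKM, and the 8 oocyte and zygote markers to 784.5 and 753.8 FPKM against 611.6 and 592.5 FPKM. Markers of the 2-cell embryo summed to 731 and 648 FPKM with TSA against 243 and 288 FPKM. The part of these in the homeobox results was not tested.

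**Figure D4:**
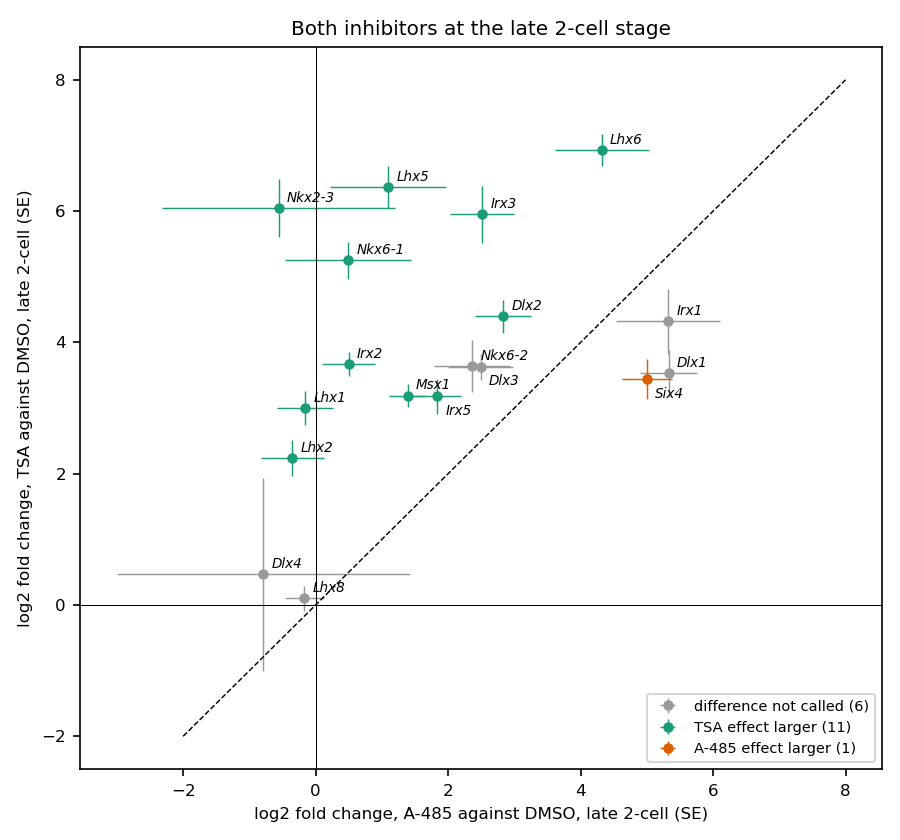
Log2 fold change of counts at the late 2-cell stage with TSA (vertical axis) and with A-485 (horizontal axis), each against its own 2 DMSO libraries, for 18 homeobox genes tested in both experiments with more than 3 counts in each group (bars are SE, the dashed line marks equal changes). Green marks 11 genes with a larger TSA effect in the test of the difference, orange the 1 gene with a larger A-485 effect, and grey 6 genes whose difference was not called; Nkx2-3, Lhx5 and Nkx6-1 lie far above the line.

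The effects of TSA and A-485 at the late 2-cell stage rest on separate DMSO groups and were compared directly, as the TSA effect minus the A-485 effect. The agents and the hours of exposure differ between them, A-485 ending at 20 hpi and TSA at 28 hpi. Whether the embryos of both experiments were prepared together is not given in the sources used here. Agent, hours of exposure and preparation cannot be told apart. Of 43 genes, 14 had the larger effect with TSA and 1 with A-485, against 11.0% and 2.98% of all genes. With mitochondrial scaling the median of all genes shifted by 0.68, the split of all genes went from 2925 higher and 791 lower to 5405 and 387, and of the homeobox genes 21 were higher and 0 lower. Nkx genes that were low with A-485 made some of the widest gaps. Nkx2-3 was at 0.08 and 0.21 FPKM with A-485 and its DMSO libraries at 0.32 and 0.05 FPKM, and its effects differed by 6.73 ± 1.09 on the log2 scale (adjusted p = 0.000212), a call lost without DMSO replicate 1 of the A-485 experiment (4.90). Nkx6-1 was at 0.42 and 0.39 FPKM with A-485 against 0.25 and 0.25 FPKM (difference of effects 4.87 ± 0.60, adjusted p = 1.21e-05). Lhx5 was at 0.67 and 1.3 FPKM with A-485 against 0.66 and 0.13 FPKM (5.40 ± 0.85, adjusted p = 0.000174). Irx2 and Lhx1 were high with TSA and did not pass with A-485, with differences of 3.27 ± 0.43 and 3.27 ± 0.47. Msx1 and Irx3 rose with both agents and more with TSA, with differences of 1.91 ± 0.30 and 3.56 ± 0.65. Lhx6, Irx5, Dlx2 and Nkx2-5 were also called, each of them only while particular libraries were kept. Lhx6 (2.73) was not called without DMSO replicate 1 of the TSA experiment (2.45) or of the A-485 experiment (0.90). Irx5 (1.45) was not called without TSA replicate 1 (1.34) or 2 (1.51) or without DMSO replicate 2 of the TSA (1.06) or the A-485 experiment (1.24). Dlx2 (1.68) was not called without TSA replicate 1 (1.45), DMSO replicate 2 of the TSA experiment (1.63) or DMSO replicate 1 of the A-485 experiment (1.57), and Nkx2-5 (6.93, a fitted value that rests on a group with 1 count and is no bound) not without TSA replicate 2 (6.87) or DMSO replicate 1 of the TSA experiment (6.41). Six4 was the 1 gene with the larger effect of A-485 (−1.45 ± 0.48, adjusted p = 0.0474). That call was lost on leaving out any single library other than DMSO replicate 2 of the A-485 experiment (values from −1.67 to −0.94), with total counts (−1.39) and with mitochondrial scaling (−0.74). Dlx1 (−1.69 ± 0.57, adjusted p = 0.0521) and Irx1 (−0.91 ± 0.96, adjusted p = 0.615) had the larger fold change with A-485 too, without passing.

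Several of the genes lie beside a paralog. Dlx1 and Dlx2 lie 9.43 kb apart and both rose at the late 2-cell stage with either agent. Dlx6 and Dlx5 lie 9.24 kb apart, and both were called with A-485, while with TSA Dlx6 was called and Dlx5 did not pass (adjusted p = 0.11). Dlx3 and Dlx4 lie 15.2 kb apart, and with TSA Dlx3 reached 23.4 and 17.7 FPKM while Dlx4 was at 0.05 and 0.17 FPKM. Irx6, 298 kb from Irx5, was at 0.16 and 0.08 FPKM where Irx5 was at 15.5 and 13.2 FPKM. Whether neighbours differ in their response was not tested.

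In the ATAC-seq data, which mark open chromatin, there was 1 peak list for each of 4 groups over both replicates, so the lists carry no spread between replicates and no test could be made. A gene was counted when a peak lay within 1 kb of an annotated start site. In late 1-cell embryos 5 of the 43 genes had such a peak with DMSO (11.6%, against 26.2% of all protein-coding genes) and 1 with A-485 (2.33% against 24.7%). Those with DMSO included Irx1, Irx2, Nkx3-2 and Nkx6-1, and that with A-485 was Nkx6-1. In early 2-cell embryos 1 gene had a peak with DMSO (2.33% against 31.8%) and 12 with A-485 (27.9% against 41.0%). The 12 included Dlx1, Dlx2, Dlx5, Dlx6, Irx3, Irx5, Lhx4, Msx1, Nkx6-1, Nkx6-2 and Six4. The list of early 2-cell embryos with A-485 is the shorter of the pair (13712 peaks against 27693 with DMSO), and with the 7094 strongest peaks of each list the numbers were 7 with A-485 (16.3%, against 27.9% of all protein-coding genes) and 0 with DMSO (against 14.5%) at the early 2-cell stage. The peak at Msx1 (chr5:37824291-37824900, fold enrichment 5.57) covers the whole promoter sequence shown above, and that at Six4 (chr12:73113215-73113681, fold enrichment 7.45) does so too. The peak at Dlx2 (chr2:71545735-71546888, fold enrichment 4.32) reaches from the gene into the promoter shown. At Nkx6-1 a peak was listed with DMSO and with A-485 in late 1-cell embryos and with A-485 at the early 2-cell stage. Of the 12 genes with a promoter peak in A-485 early 2-cell embryos, 9 were called higher in A-485 late 2-cell embryos, among them Dlx1, Dlx2, Msx1 and Six4. Of the 31 genes without, 28 were tested and 7 were called, among them Dlx3, Irx1 and Six3. Of all protein-coding genes tested, 9.71% of the 8716 with such a peak and 9.49% of the 7558 without were called higher, and no test of this was made. Nkx6-1 and Lhx4 had a peak and were not called. Nkx6-1 was at 0.42 and 0.39 FPKM with A-485 against 0.25 and 0.25 FPKM with DMSO. Lhx4 was at 0.44 and 0.58 FPKM against 0 in both DMSO libraries, and was called when the FPKM threshold was left out.

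**Figure D5:**
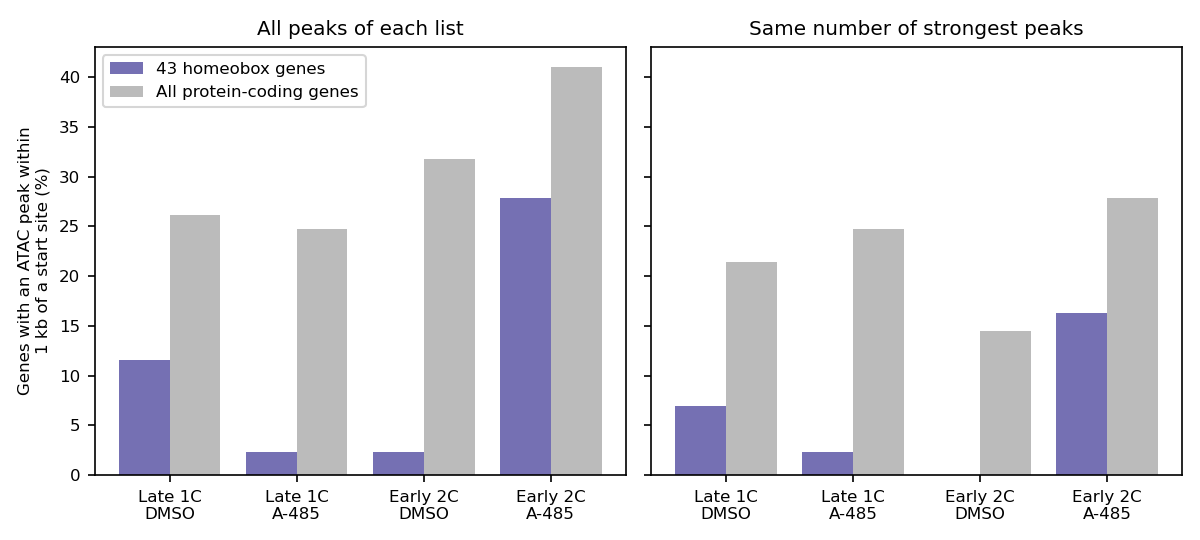
Share of the 43 homeobox genes (purple) and of all 21897 protein-coding genes (grey) with an ATAC peak within 1 kb of a start site (vertical axis, in percent) in the 4 peak lists (1C, 1-cell; 2C, 2-cell), with all peaks (left) and with the 7094 strongest peaks of each list (right). The homeobox genes are below all genes in each list, and with all peaks their share is 2.33% in early 2-cell embryos with DMSO and 27.9% with A-485.

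A list of Polycomb targets comes with the study, made of genes that carry H3K27me3 in the inner cell mass and are hardly expressed before implantation, so a low level in these controls is part of its definition. It holds 8 of the 43 homeobox genes (18.6%, against 2.36% of all protein-coding genes): Nkx1-2, Nkx2-1, Nkx2-6, Nkx3-2, Irx4, Irx6, Dlx4 and Six6. With TSA 2 of the 5 tested on the list were called (Nkx2-1 and Nkx3-2) and 28 of the 35 not on it, and of all 386 Polycomb targets tested 11.4% were called higher. With A-485 at the late 2-cell stage 0 of the 8 on the list and 16 of the 32 others were called, and of all 344 Polycomb targets tested 14.8% were higher. Without the FPKM threshold 3 of the 8 on the list, Nkx1-2, Irx4 and Six6, passed with A-485, against 111 of all 344 Polycomb targets tested. Six6 overlaps 4930447C04Rik on the opposite strand, at 20.3 and 21.7 FPKM with A-485. No test of the difference between listed and other genes was made.

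Set beside other families of developmental transcription factors, the genes of these 6 families had a larger share of calls with TSA. Of 35 Hox genes tested 19 were higher (54.3%), of 39 Sox, Tbx and Pax genes 18 (46.2%) and of 40 Forkhead genes 14 (35.0%), against 30 of 40 (75.0%) here. With A-485 at the late 2-cell stage the shares were 17 of 36 Hox genes (47.2%), 14 of 35 Sox, Tbx and Pax genes (40.0%) and 7 of 38 Forkhead genes (18.4%), against 16 of 40 (40.0%). With A-485 at the early 2-cell stage 2 of 31 Hox genes, 5 of 35 Sox, Tbx and Pax genes and 3 of 33 Forkhead genes were lower, against 7 of 33. The differences between families were not tested.

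Genes that work with these factors were looked at as 4 short lists. Of 14 LIM cofactors and relatives, all of them tested at the late 2-cell stage, 4 were higher and 0 lower with TSA. Of all genes, 13.8% were higher and 13.9% lower. With A-485, 3 were higher and 2 lower, against 10.5% and 16.8% of all genes. Isl1, a LIM-homeobox gene of motor neurons and the heart, was at a mean of 3.79 FPKM with TSA against 0.33 FPKM (3.62 ± 0.36), and at 3.39 FPKM with A-485 against 0.605 FPKM (4.65 ± 0.95). Lmo2, a LIM-only gene of blood formation, rose with TSA by 4.78 ± 0.70 on the log2 scale, and with A-485 stood at a mean of 1.50 FPKM against 0 in both DMSO libraries. Lmx1a and Lmx1b, LIM-homeobox genes of the midbrain, were higher with one agent and lower with the other. With TSA, Lmx1b rose (2.78 ± 0.23) and Lmx1a rose (1.60 ± 0.35), and with A-485 at the late 2-cell stage both fell (−2.93 ± 0.73 and −3.18 ± 0.56). Lmo4 rose with A-485 at the late 2-cell stage (1.74 ± 0.31) after being lower at the early 2-cell stage (−1.47 ± 0.27). At the early stage 2 of 13 tested were lower, Lmo4 and Lmx1a (−2.81 ± 0.31), against 7.9% of all genes. Of the cofactors of the sine oculis proteins (Eya and Dach genes), 5 were tested with TSA and 4 with A-485 at the late 2-cell stage, and 0 were called in either direction. The third list held 6 genes of the Groucho family, some of which are corepressors that Nkx and other homeodomain proteins recruit. Of these 6 genes, Tle4 fell at the late 2-cell stage with TSA (−1.48 ± 0.11) and with A-485 (−1.80 ± 0.14). Tle3 fell with A-485 at the late (−3.05 ± 0.29) and the early 2-cell stage (−2.73 ± 0.37). BMP and hedgehog signals induce Msx, Dlx and Nkx genes in later tissues. The last list held 11 genes of these pathways, namely ligands, Smad genes and Id genes. With TSA 5 of 11 tested rose (Bmp2, Bmp4, Shh, Id2 and Id3), against 13.8% of all genes. With A-485 at the late 2-cell stage 4 of 10 tested rose (Bmp4, Shh, Id2 and Smad1), against 10.5% of all genes. None fell in either comparison. At the early 2-cell stage with A-485, 1 of 10 tested was lower, Id1 (−4.5 ± 1.02), against 7.9% of all genes. Bmp4 reached a mean of 24.9 FPKM with TSA against 0.15 FPKM (6.19 ± 0.33), and 4.95 FPKM with A-485 against 0.38 FPKM (5.05 ± 0.72). Shh rose with TSA (1.26 ± 0.32) and with A-485 (2.18 ± 0.44), and so did Id2 (3.05 ± 0.17 and 1.95 ± 0.30).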

How the data were processed

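Total RNA-seq of 16 libraries (8 groups of 2) and ATAC-seq of 4 groups were used. The authors trimmed reads with Trimmomatic 0.39, aligned them to GRCm38 with STAR 2.7.8a and quantified GENCODE genes with RSEM 1.3.1. The deposited RNA values are expected counts, which were rounded to whole numbers for testing, and FPKM, also deposited by the authors. The authors' deposited ATAC peak lists hold peaks reproducible over both replicates, with a score and a fold enrichment (a ratio) for each. The sources used here do not give the strand setting of the quantification.

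Genes with at least 10 counts over the libraries compared were tested with edgeR 4.0.16 (R 4.3.3; quasi-likelihood test, TMM scaling, Benjamini-Hochberg adjustment over all genes tested), each comparison on its own libraries. The edgeR test between groups was also run on simulated counts. DESeq2 and the tests of a difference between effects were not. DESeq2 1.42.0 was an alternative. A gene was called at a 2-fold change with an adjusted p below 0.05, if 1 of its groups averaged at least 1 FPKM. Where a group had 0 counts, a floor of 3 counts per library gave a lower bound, and ratios on 1 to 3 counts carry exact 95% counting intervals, which cover counting error only. Library totals ran from 13206163 to 32585987 counts. Values are given for genes with a mean of 1 FPKM in any group or called anywhere, and partner genes were named when called with an inhibitor. The members and lists were chosen with earlier results of these data known. Same-numbered libraries did not deviate together (correlations from -0.0252 to 0.026), so the numbers do not pair them. Alternatives were other scalings, filters and controls, a replicate block, and leaving out each library. The test of the A-485 effect between stages was added after seeing the data. Counts and medians cover all 43 genes, and the values of some genes are not reported here.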

Additional observations from a re-analysis of the deposited data

Results flagged for a closer look

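The effect of A-485 differed between the early and the late 2-cell stage for 19 of the 43 genes, in a test of the difference itself that was chosen after seeing the data (8.39% of all genes differed in this direction). A difference of stage cannot be told apart from one of preparation. The late minus early difference on the log2 scale was 4.81 for Lhx1, 4.65 for Lhx6 and 4.66 for Lhx9. It was 3.30 for Nkx6-2. Among the Irx genes it was 7.08 for Irx1, 2.20 for Irx2, 4.28 for Irx3 and 3.34 for Irx5. Among the Dlx genes it was 4.93 for Dlx1, 4.01 for Dlx2 and 4.65 for Dlx3. It was 3.74 for Msx1 and 5.25 for Six4. The fitted differences of Irx4 (11.90), Dlx5 (8.33), Dlx6 (7.68), Six3 (10.22) and Six6 (11.39) rest on groups with at most 3 counts, depend on how such groups are fitted and are no bounds. The call of Irx2 was lost without late 2-cell A-485 replicate 2 (1.78), late 2-cell DMSO replicate 1 (1.62), early 2-cell A-485 replicate 2 (1.76) or early 2-cell DMSO replicate 1 (1.70). The calls of Irx4 and Six6 were lost on leaving out any of 6 and 7 of the 8 libraries in turn (7.14 to 11.85 and 7.39 to 11.68), and that of Six3 without early 2-cell DMSO replicate 2 (6.46).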

How the results depend on the processing

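Of the calls, 26 of 30 with TSA, 5 of 7 with A-485 at the early and 10 of 16 at the late 2-cell stage held under every alternative run, as did 9 of 10 and 4 of 5 between stages, 9 of 15 of TSA minus A-485 and 15 of 19 of late minus early A-485. Where a value moved, the cause was not tested. With mitochondrial scaling, A-485 at the late 2-cell stage gave 10 higher and 2 lower genes, early 2-cell against zygote 2 lower (2 also with total counts), and late minus early A-485 1 lower. Without the FPKM threshold, early 2-cell against zygote gave 14 higher. TSA minus A-485 gave 2 lower genes with DESeq2, RLE size factors, no filter on low counts or the replicate block, and 0 with total counts, mitochondrial scaling or all 16 libraries in one fit.

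Leaving out each library in turn gave 27 to 30 higher genes with TSA, 5 to 7 lower with A-485 at the early and 14 to 15 higher at the late 2-cell stage. It gave 8 to 11 higher and 1 lower for early 2-cell against zygote, 4 to 6 lower for late against early 2-cell, 12 to 15 higher and 0 to 1 lower for TSA minus A-485, and 16 to 18 higher for late minus early A-485. The other counts were 0 throughout.

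Same-numbered libraries did not deviate together (correlations from -0.0252 to 0.026). With the replicate block there were 31 higher genes with TSA, 7 lower and 15 higher with A-485 at the early and late 2-cell stage, and 16 higher and 2 lower for TSA minus A-485.

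Of values that did not pass, some changed sign. For A-485 at the late 2-cell stage, Lhx2 was at 0.10 with both DMSO groups and Lhx8 at 0.02 with total counts, and Lhx8 ran from -0.59 to 0.18 on leaving out a library. For late against early 2-cell, Lhx1 ran from -0.60 to 0.31 and Irx2 from -0.23 to 0.67 on leaving out a library, and Irx2 was at -1.04 with the DMSO group of the TSA experiment. For late minus early A-485, Lhx8 ran from -0.70 to 0.14 and Nkx1-2 from -0.42 to 6.24.

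At a mean of 0.1 FPKM, 18 genes were detected in zygotes with DMSO, 15 with A-485, 27 and 25 in early 2-cell embryos with DMSO and A-485, 24 and 40 in late 2-cell embryos with DMSO and A-485, and 22 in the DMSO group of the TSA experiment. At 0.5 FPKM there were 8 and 5 in zygotes with DMSO and A-485, 14 in early 2-cell embryos with A-485 and 11 in late 2-cell embryos with DMSO. With ATAC peaks within 2.5 kb, 8, 2 and 2 genes had one in late 1-cell DMSO, late 1-cell A-485 and early 2-cell DMSO embryos. With the same number of strongest peaks there were 3 in late 1-cell DMSO, 0 in early 2-cell DMSO and 7 in early 2-cell A-485 embryos. With 2 libraries a group, genes at a few counts could not be resolved.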
